A study of Homo sapiens with 12 samples.

Results

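The major histocompatibility complex (MHC) lies on the short arm of chromosome 6. The accessible sites described here were those of the deposited peak list with a summit between positions 29700000 and 33100000 of chromosome 6 (GRCh38), together with every site on an alternate sequence of chromosome 6. A summit is a local maximum of open-chromatin signal, and neighbouring summits could share 1 called interval. The pileup counts the fragments that overlap at a summit, and the enrichment is the ratio of the pileup to the local background. The rule found 908 summits in 755 intervals, which was 0.483% of the 188019 summits of the list. Of these, 100 summits in 87 intervals lay on the primary chromosome and 808 summits in 668 intervals on 13 alternate sequences. The first primary summit inside the lower bound lay at 29718906 (enrichment 2.53) and the last outside it at 29650147 (4.60). At the upper bound the last summit inside was at 33080755 (2.63) and the first outside at 33200718 (7.98).

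Open chromatin was measured by ATAC-seq, which uses a transposase that inserts where DNA is exposed, in HT1080, an established human fibrosarcoma line. Cells sat in rat tail type I collagen at 0.3 mg/mL (low), 1.0 mg/mL (medium) or 1.7 mg/mL (high) for 48 h, with 4 libraries at each concentration and 12 in all. Every group, with no untreated one among them, carried 20 µM GM6001, a broad inhibitor of matrix metalloproteinases. The list was a single one for the series with no value per library, so no comparison between collagen concentrations, no replicate error and no depth per library could be given, and all values below are descriptions of the pooled list. Markers fixed to check the label were counted by a summit within 1000 bp of the start, or of either gene end without a promoter entry. A summit was found at 6 of 7 mesenchymal genes (VIM, CD44, FN1, COL6A1, COL6A2 and PDGFRB, not THY1), 2 of 6 leukocyte genes (CD3E and ITGAX) and 1 of 3 epithelial genes (EPCAM). Their enrichments were 3.70 to 15.1 at the mesenchymal genes, 14.5 at CD3E, 6.03 at ITGAX and 2.11 at EPCAM. CD3E had no promoter entry, and its summit lay 642 bp from the gene end at 118316173. The other end was at 118304730, so this summit may not lie near the CD3E start. The share over all coding genes was 63.9%, which lies inside the Wilson 95% intervals of the 3 marker lists (48.7 to 97.4%, 9.68 to 70.0% and 6.15 to 79.2%).

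The region divides into 3 groups of genes, read from the telomere inward. The class I block holds the HLA genes whose products display peptides from inside the cell to cytotoxic T cells, among many genes with unrelated roles. The class II block holds the HLA genes that present peptides from outside the cell, normally in professional antigen-presenting cells, and the genes that cut and transport peptides for class I. The class III block between them is packed with genes for complement, cytokines, heat shock proteins and general cell functions. Because HLA genes differ so much between people, the GRCh38 assembly carries, beside the primary sequence, 7 further haplotypes of the region, known as APD, COX, DBB, MANN, MCF, QBL and SSTO. They come from reference cell lines, not from HT1080. Regulation of class I starts involves an NF-κB site, an interferon-stimulated response element and, further down, a box with an inverted CCAAT that is bound by NF-Y.

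The promoters of HLA class I genes and of the coding gene with the strongest summit in each block are shown because the results turn on which of these starts had a summit. Each run is the 250 bases before the annotated start, 5′ to 3′ on the gene's strand, from RefSeq on GRCh38.p14. Capitals mark matches, on either strand, to CCAAT (read as ATTGG on the other strand), to GAAA followed by any 2 bases and GAAA (the core of an interferon-stimulated response element), to TGACGTCA (a cAMP response element) and to GGGATTCCC (an NF-κB site). The last of these was added after the HLA-B sequence had been read. No matches overlapped in these promoters. HLA-E had no entry in the promoter table.
HLA-F (chr6:29723184-29723433, + strand): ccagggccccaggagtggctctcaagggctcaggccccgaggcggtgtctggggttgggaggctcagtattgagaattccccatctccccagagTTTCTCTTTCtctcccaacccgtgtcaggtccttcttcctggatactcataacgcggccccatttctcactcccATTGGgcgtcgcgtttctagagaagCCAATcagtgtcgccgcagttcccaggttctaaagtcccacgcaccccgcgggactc
HLA-G (chr6:29826224-29826473, + strand): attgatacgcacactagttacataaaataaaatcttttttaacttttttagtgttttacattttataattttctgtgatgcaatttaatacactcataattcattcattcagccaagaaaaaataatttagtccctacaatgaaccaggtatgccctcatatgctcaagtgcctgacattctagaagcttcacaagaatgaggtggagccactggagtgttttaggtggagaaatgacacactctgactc
HLA-C (chr6:31272093-31272342, − strand): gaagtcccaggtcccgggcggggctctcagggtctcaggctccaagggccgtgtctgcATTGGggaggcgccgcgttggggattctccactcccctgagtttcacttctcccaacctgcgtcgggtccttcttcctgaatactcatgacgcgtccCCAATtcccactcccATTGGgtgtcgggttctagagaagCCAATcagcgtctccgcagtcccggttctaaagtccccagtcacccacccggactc
HLA-B (chr6:31357180-31357429, − strand): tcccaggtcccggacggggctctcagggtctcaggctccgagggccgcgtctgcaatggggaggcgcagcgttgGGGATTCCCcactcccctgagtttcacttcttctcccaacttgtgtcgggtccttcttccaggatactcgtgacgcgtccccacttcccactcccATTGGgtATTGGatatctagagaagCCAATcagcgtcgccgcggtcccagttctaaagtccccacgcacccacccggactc
TCF19 (class I block, chr6:31158339-31158588, + strand): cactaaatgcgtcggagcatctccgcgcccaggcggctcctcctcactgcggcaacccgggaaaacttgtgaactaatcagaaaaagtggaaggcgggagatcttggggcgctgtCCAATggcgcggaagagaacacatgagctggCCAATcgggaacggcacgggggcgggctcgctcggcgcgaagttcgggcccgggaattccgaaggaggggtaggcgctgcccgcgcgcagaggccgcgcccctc
NELFE (class III block, chr6:31958972-31959221, − strand): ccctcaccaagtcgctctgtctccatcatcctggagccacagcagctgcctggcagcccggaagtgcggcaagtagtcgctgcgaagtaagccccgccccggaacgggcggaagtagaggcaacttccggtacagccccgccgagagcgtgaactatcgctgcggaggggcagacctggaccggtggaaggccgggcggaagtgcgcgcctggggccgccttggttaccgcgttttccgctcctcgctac
PSMB9 (class II block, chr6:32853942-32854191, + strand): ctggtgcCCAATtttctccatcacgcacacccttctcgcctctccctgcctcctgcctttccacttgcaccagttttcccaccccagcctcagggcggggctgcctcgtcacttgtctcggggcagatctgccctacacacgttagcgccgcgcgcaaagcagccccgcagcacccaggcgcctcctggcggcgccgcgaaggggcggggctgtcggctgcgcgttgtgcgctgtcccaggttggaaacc
The 250 bases of HLA-C held 4 CCAAT matches, those of HLA-B held 3 and those of HLA-F 2, while those of HLA-G and NELFE held none of the 4 motifs. Only the tabulated start of HLA-G was used. Its run lacks the stretch tctagagaagccaatcag that the HLA-F, HLA-B and HLA-C runs share, and other possible starts of HLA-G were not examined. Among the printed runs, exact NF-κB letters were in HLA-B only, from position −176 relative to the start, and the exact interferon element core in HLA-F only, from −156. The NF-κB letters were taken from the HLA-B run, so their presence there was given. The HLA-C run reads gggattctc at the corresponding place. Variant forms of either element were not searched, so their absence from the other runs is not shown. Over all 27303 promoters of the table on assembled chromosomes, 33.0% held CCAAT, 3.07% the interferon element core, 1.77% TGACGTCA and 0.348% GGGATTCCC. In the 12 class II promoters of the table, CCAAT was present in 11. Among the 115 coding genes of the region with an entry, CCAAT was found in 29 of the 57 promoters with a summit near the start (50.9%) and in 25 of the 58 without (43.1%).

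Accessible intervals were unevenly spread over the primary sequence. The class III block (31511125 to 32224067, from the end of MICB to the end of NOTCH4) held 33 intervals, or 46.3 per Mb. The class I block (29700000 to 31511124) held 44, or 24.3 per Mb, and the class II block (32224068 to 33100000) held 10, or 11.4 per Mb. Bins of 1 Mb over the rest of chromosome 6 (intervals up to 10 kb) had a median of 21.0 intervals, with quartiles of 11.0 and 35.8, so the class III block stood above the upper quartile and the other blocks between the quartiles. The class III block is also dense in genes, and per coding gene it had 0.559 intervals, against 0.898 in class I, and the class II block had 10 intervals for 20 coding genes.

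Long stretches around the HLA genes had no summit on the primary sequence. The longest ran for 400 kb from 32195778 to 32595344, over NOTCH4, TSBP1, BTNL2, HLA-DRA, HLA-DRB5 and HLA-DRB1. Next came 308 kb from 29753102 to 30061237, which held HLA-G, and 243 kb from 32595344 to 32838799, which held HLA-DQA1, HLA-DQB1, HLA-DQA2, HLA-DQB2 and HLA-DOB. Of the 34 bins of 100 kb across the region, 10 had no interval. The map of the 8 copies shows these stretches beside the well filled ones.

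**Figure D1:**
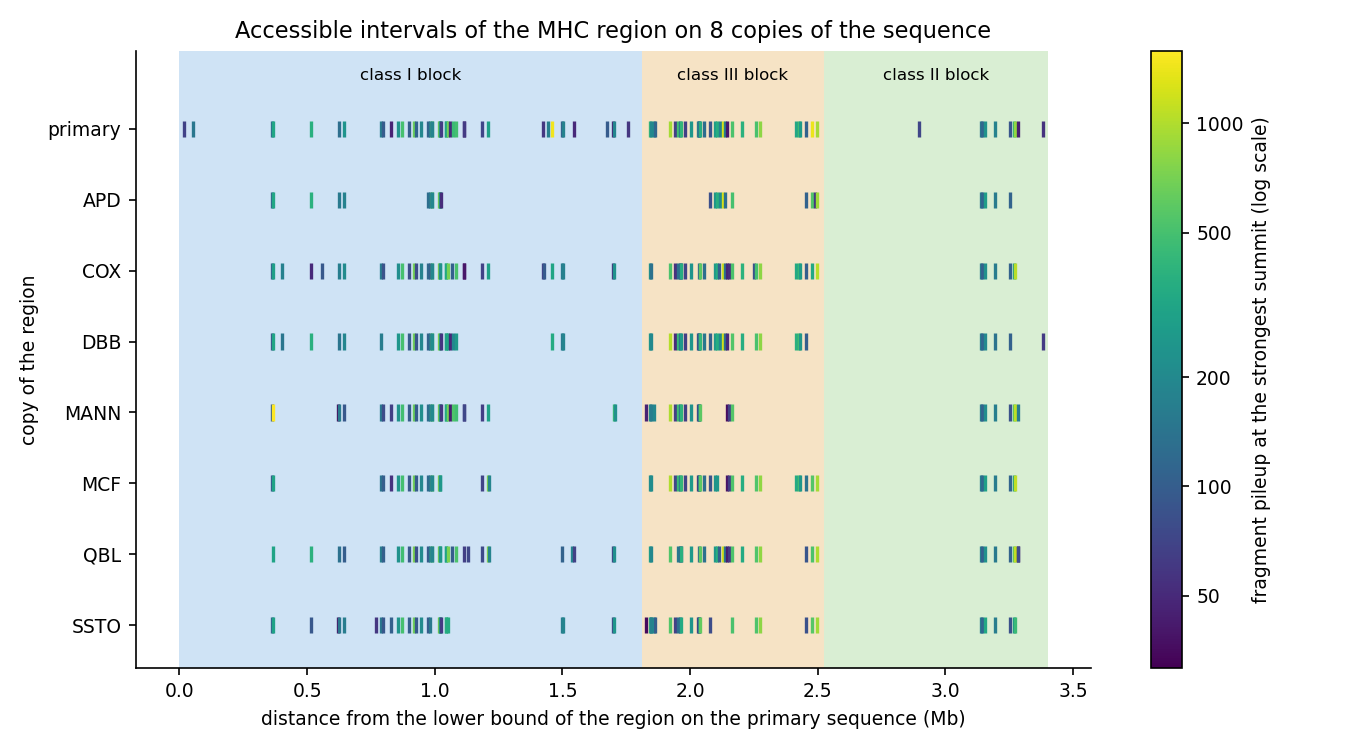
Strongest summit of each interval on the primary sequence and on the 7 alternate haplotypes (rows), against the distance in Mb from the lower bound of the region on the primary sequence; the colour gives the fragment pileup on a log scale and the shading the 3 blocks. Alternate summits stand at their position estimated from matched intervals, unplaced ones are left out, and the left part of the class II block is nearly empty in every row.

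The share of coding genes with a summit near the start was lower in the region than over the genome. A gene was counted where a summit lay within 1000 bp of its annotated start. Genes without a promoter entry, 13 in the region and others elsewhere, were counted at either gene end. On the primary sequence 61 of 128 coding genes were counted, which is 47.7% (Wilson 95% interval 39.2 to 56.3). Over all 19884 coding genes the share was 63.9%, and over the other 914 coding genes of chromosome 6 it was 64.8% (61.6 to 67.8). By block the counts were 24 of 49 in class I (49.0%, 35.6 to 62.5), 30 of 59 in class III (50.8%, 38.4 to 63.2) and 7 of 20 in class II (35.0%, 18.1 to 56.7). These intervals cover counting error over genes only, and those of the 3 blocks overlap one another. The plot of shares shows the counts by gene group.

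**Figure D2:**
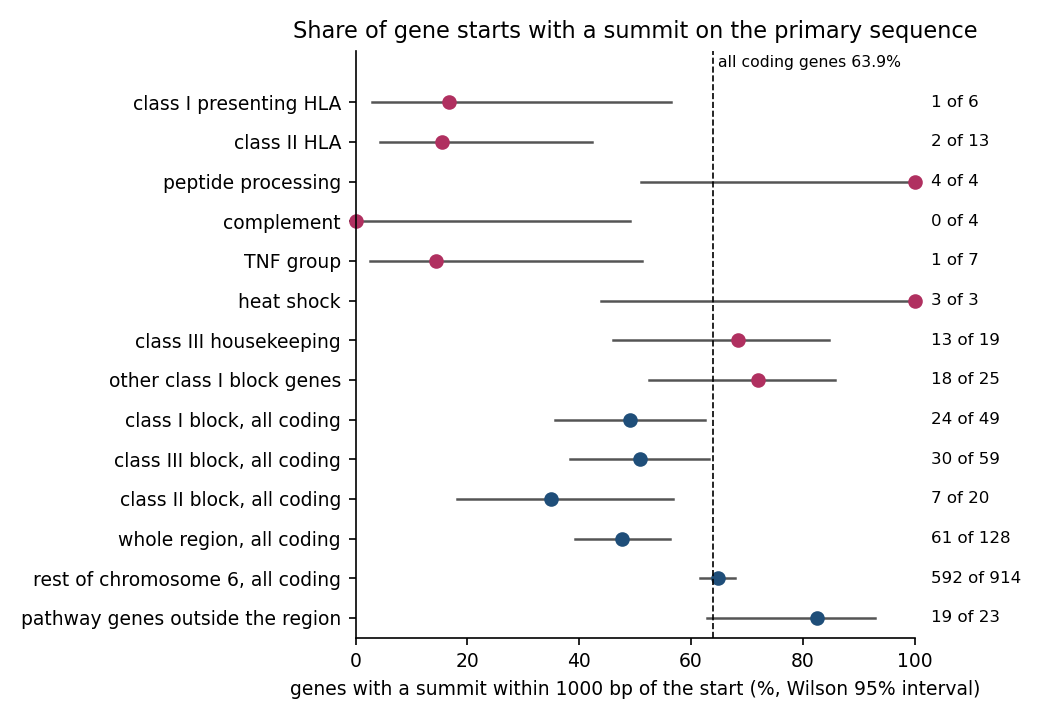
Percent of genes with a summit within 1000 bp of the start on the primary sequence, for gene groups (red) and for all coding genes of a block or region (blue); lines are Wilson 95% intervals, numbers give genes counted of all, and the dashed line is the 63.9% of all coding genes. The class I presenting and class II HLA genes, complement and the TNF group sit left of the line, at 0 to 16.7%, and peptide processing and heat shock genes at 100%.

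Among the classical and non-classical class I genes, HLA-E alone had a summit at its start on the primary sequence, so 1 of 6 was counted. That is 16.7% (Wilson interval 3.01 to 56.4), an interval that lies below the 63.9% of all coding genes. HLA-E, which presents leader peptides of other class I proteins to natural killer cells, had a summit with 164 fragments and an enrichment of 7.74. HLA-F, HLA-G, HLA-C and HLA-B had none. The nearest primary summit lay 4.20 kb from the HLA-F start, 17.1 kb from HLA-B, 27.5 kb from HLA-C and 73.4 kb from HLA-G. MICA, a stress-induced ligand of the receptor NKG2D, had a summit with a pileup of 192 (enrichment 9.05), and its relative MICB had none. None of the 9 class I pseudogenes listed had a primary summit, and HLA-L had one on COX, with a pileup of 93.

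Summits on alternate haplotypes lay around HLA-C and HLA-B, whose starts had no summit on the primary sequence. These summits fall between matched intervals whose offsets to the primary sequence differ, so each can only be bracketed between 2 primary positions. A summit whose bracket reached the HLA-C start, to within 1000 bp, was present on MANN (pileup 323), DBB (215), QBL (97) and SSTO (91). A second QBL summit (404) had HLA-C within its bracket of 119 kb, but it matched the summits at the TCF19 start of COX and DBB. The MANN and DBB summits matched each other in order and spacing, and so did those of QBL and SSTO. For HLA-B such summits were found on QBL (127), MANN (61) and SSTO (61), and all 3 matched with one another in order and spacing. The brackets on SSTO were 1.18 kb wide at both genes, while those on QBL were 119 kb wide and also reached other starts, the QBL summit of 97 reaching HLA-B as well. The brackets of the QBL summits of 97 and 127 also held a primary summit at 31374284 (97). That of the summit of 127 held further ones, the MICA summit (192) among them. The QBL width came from pairs matched to 31197210 and 31244407, with offsets of 28863497 and 28863350 against 28744718 and 28744176 at the neighbouring pairs. The TCF19 match of the summit of 404, which lies beyond these pairs on QBL, goes against their order. Either may be wrong, so the QBL brackets may be wider than needed. A COX summit with a pileup of 106 had the HLA-F start in its bracket of 6.70 kb. The alternates' own sequence and annotation were not used here, so none of these summits is assigned to a gene.

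Class II genes gave 2 of 13 starts with a summit, both weak. Their share was 15.4% (Wilson interval 4.33 to 42.2), an interval that lies below the 63.9% of all coding genes. HLA-DMA, a chaperone that helps load peptides onto class II molecules, had a pileup of 89 and an enrichment of 4.22. HLA-DPA1, the alpha chain of HLA-DP, had a pileup of 55 and an enrichment of 2.63, the lowest among the called coding starts of the region. No summit lay near the starts of HLA-DRA, HLA-DRB1, HLA-DRB5, HLA-DQA1, HLA-DQB1, HLA-DQA2, HLA-DQB2, HLA-DPB1, HLA-DMB, HLA-DOA or HLA-DOB. The nearest primary summit to HLA-DRA was 150 kb away, and that to HLA-DRB1 5.50 kb away, with a pileup of 72. On the alternates, HLA-DMA had a summit on all 7 haplotypes and HLA-DPA1 on DBB (62). Unplaced SSTO summits had brackets that reached other class II starts to within 1000 bp. One with a pileup of 435 and an enrichment of 15.9, above that of any primary summit of the block, reached HLA-DOA in a bracket of 49.6 kb. Another with a pileup of 126 reached HLA-DQA1 and HLA-DQB1 in a bracket of 83.0 kb, and a weaker summit with a pileup of 59 reached HLA-DPA1 in a bracket of 49.6 kb. None of the 3 matched a summit on another haplotype.

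The 4 genes for peptide processing inside the class II block all had a summit at the start. That is 100% (Wilson interval 51.0 to 100), an interval that includes the 63.9% of all coding genes. TAP1 and TAP2 form the transporter that carries peptides into the endoplasmic reticulum, and PSMB8 and PSMB9 are subunits of the immunoproteasome. TAP1 and PSMB9 are divergent neighbours and shared 1 summit, the strongest of the block, at an enrichment of 11.1 (pileup 236). TAP2 had an enrichment of 7.36 (pileup 156) and PSMB8 5.44 (115). BRD2, a bromodomain protein that binds acetylated histones and has no role in presentation, had a start summit with an enrichment of 4.30 (pileup 410) and a second summit 3345 bp from it with 8.59 (841). A further summit of the block, with an enrichment of 8.40, lay 502 bp from the start of the uncharacterised gene LOC100294145.

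Genes of the presentation pathway elsewhere in the genome were counted beside them. Of 23 listed, 19 had a summit near the start on the primary sequence, with a median pileup of 1219. That is 82.6% (62.9 to 93.0), an interval that includes the 63.9% of all coding genes. B2M, the invariant light chain of class I molecules, had a pileup of 767 and an enrichment of 14.5. The class I transactivator NLRC5 had a pileup of 349 (enrichment 7.26), and the class II transactivator CIITA 867 (7.61). The RFX subunits that bind class I and class II promoters had pileups of 1219 (RFX5), 566 (RFXAP) and 2094 (RFXANK), and the NF-Y subunits 4203 (NFYA), 1323 (NFYB) and 2033 (NFYC). No primary summit lay near CD74, the class II invariant chain, nor near ERAP2, PSMB10 or TAPBP. TAPBP, the tapasin gene, lies just beyond the region's upper bound and had summits on COX (116), DBB (134) and QBL (203). CIITA and other genes have several starts, and only the tabulated one was used where there was a promoter entry. Genes without one, CIITA among them, were counted at either gene end. The CIITA summit, at 10942477, lay 544 bp from the gene end at 10943021, and the other end was at 10866206. Which end holds the start was not read for such genes, so this summit may not lie near the CIITA start.

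In the class III block, counts of starts with a summit were 13 of 19 for a list of genes with general cell functions, 0 of 4 for complement and 1 of 7 for the TNF group. The share of the first list was 68.4% (46.0 to 84.6), near the 63.9% of all coding genes, and that of the TNF group 14.3% (2.57 to 51.3). The complement genes were C2, CFB, C4A and C4B, and 0 of 4 allows a share of up to 49.0% by the Wilson interval. Of the TNF group (TNF, LTA, LTB, NFKBIL1, LST1, NCR3 and AIF1) NFKBIL1 alone was counted. Its summit, with an enrichment of 9.29, lay 687 bp from its start and was shared with ATP6V1G2. The primary summit nearest to the start of TNF was 12.1 kb away, with a pileup of 113. In the list of general genes STK19 (listed as WHR1 in the gene table) missed the window at 1035 bp. EHMT2, CYP21A2, TNXB, PBX2 and NOTCH4 were the other genes of the list not counted.

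The strongest class III summit lay between the divergent starts of NELFE, a subunit of the negative elongation factor, and SKIC2, an RNA helicase of the exosome pathway. Its enrichment was 18.2 and its pileup 519. LSM2, an RNA-processing factor, followed with 16.9 (pileup 364), then AGPAT1, an enzyme of phospholipid synthesis, with 16.3 (1413), NEU1, a lysosomal sialidase, with 15.8 (527) and HSPA1B with 15.5 (1226). All 3 heat shock genes HSPA1A, HSPA1B and HSPA1L were counted, the summit at HSPA1A and HSPA1L being shared (pileup 175). The Wilson interval of their share, 43.9 to 100%, includes the 63.9% of all coding genes. HSPA1A and HSPA1B are near-identical copies, so how the fragments divide between them is uncertain. C4A and C4B are such a pair as well.

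In the class I block, 18 of 25 listed genes that present no antigen had a summit, which is 72.0% (52.4 to 85.7) and near the 63.9% of all coding genes. The strongest summit of the whole primary region lay between the divergent starts of TCF19, a chromatin-binding factor, and CCHCR1, a coiled-coil protein, at an enrichment of 21.2 (pileup 1454). ABCF1, a translation factor, followed with 18.4 (501) and TRIM26, a ubiquitin ligase, with 17.9 (380). The other top summits of the block lay away from coding starts, 1 at 30752519 (16.5, pileup 694), 7972 bp from IER3, and 1 inside HCG20 (15.5, 489). TRIM31, DDR1, VARS2, MUC21, MUC22, CDSN and POU5F1, which include the mucin genes and a pluripotency factor, were not counted on the primary sequence.

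Most intervals on the 7 haplotypes had a match on the primary sequence. Intervals of an alternate were matched to primary ones by order and spacing, a pair being kept where a neighbouring pair within 200 kb had the same offset to within 200 bp. Of 640 intervals on the haplotypes, 515 (80.5%) were matched, and 362 of these pairs lay inside the region bounds, from 27 on APD to 62 on COX beside the 87 primary intervals there. The share of matched intervals ran from 72.0% on MANN to 86.7% on APD. Offsets varied within a haplotype, by 24.3 kb on DBB and by up to 171 kb on MCF. The offset of 495 pairs (96.1%) recurred in at least 2 other pairs of the same haplotype. The rule already asks for a neighbouring pair with that offset, so this share was largely set in advance. APD had the fewest summits, 53, and the other 6 had between 100 and 139. Where an alternate shows no summit, the lack of a summit and the lack of that stretch in the alternate cannot be told apart here.

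Matched intervals had nearly the same pileup on the primary sequence and on the alternates. Over the 515 pairs the ratio of the alternate's pileup to the primary's had a median of 0.986 (95% interval of the median 0.969 to 0.996) and quartiles of 0.898 and 1.06. It lay within 1.25-fold in 411 pairs (79.8%). By haplotype the median ran from 0.964 on COX to 1.01 on QBL, and by block it was 0.994 in class I, 0.985 in class III and 0.983 in class II. Beyond 2-fold were 27 pairs, with the alternate lower in 17 and higher in 10, and the ratio ranged from 0.132 to 5.19. Pairs that share a primary interval are not independent of each other, as the 515 pairs rested on 124 primary intervals. The plot of matched pairs shows the band along equality and the pairs away from it.

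**Figure D3:**
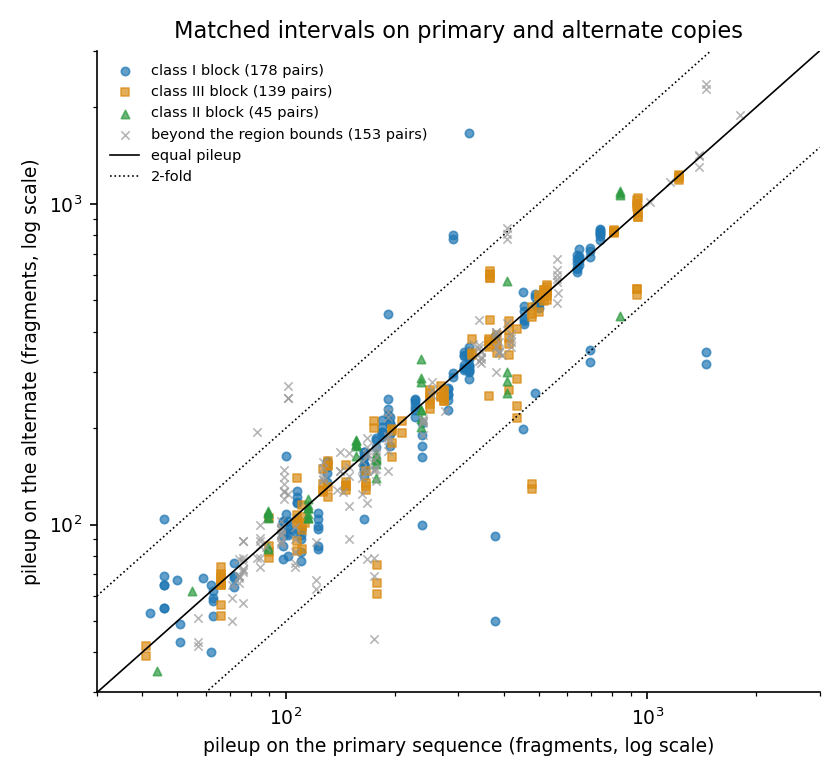
Fragment pileup of matched intervals on the primary sequence (horizontal, log scale) and on an alternate haplotype (vertical, log scale), 1 point per pair, with symbols for the block; the solid line marks equal pileup and the dotted lines 2-fold. Most points lie along the solid line (411 of 515 within 1.25-fold), and 27 lie beyond the dotted lines.

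At the HLA-E start the pileup was 142 on MCF, 154 on MANN, 155 on SSTO, 162 on COX, 163 on DBB, 164 on the primary sequence and 169 on QBL. APD had no summit there, and the highest copy was 1.19 times the lowest. HLA-DMA had pileups of 84 on SSTO, 85 on MANN, 89 on the primary sequence and between 105 and 110 on the other 5 haplotypes. The peptide processing genes had a summit on all 8 copies: TAP2 from 156 to 184, PSMB8 from 105 to 120, and the TAP1 and PSMB9 summit from 201 on DBB to 329 on SSTO. Copies lay close together at DXO, a decapping enzyme, with 6 between 810 and 830, and at HSPA1B, with 5 between 1189 and 1231. MDC1, a mediator of the DNA damage response, had 741 to 832 on 8 copies.

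Some starts differed strongly between copies. PPP1R11, a phosphatase inhibitor, had a pileup of 1660 on MANN (enrichment 23.3) and 284 to 328 on the other 7 copies, so the MANN copy carried 43.4% of the sum. TCF19 and CCHCR1 had 1454 on the primary sequence, 316 on COX and 346 on DBB. Summits on MANN (409), MCF (433) and QBL (404) that could not be placed matched that of DBB in order and spacing. At AGPAT1 and its divergent neighbour RNF5 the primary copy had 1413, COX 330 and the other 4 placed copies 526 to 566, and an unplaced summit on MANN matched these with 556. In each of these 3 cases 1 copy had more than 2 times the pileup of any other copy.

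Other starts differed between groups of copies. BAG6, a chaperone in protein quality control, had 443 to 481 on the primary sequence, DBB, MANN and MCF, and 129 to 153 on COX, QBL and SSTO. PRRC2A, a neighbouring gene, had 935 to 1030 on the same first 4 copies and 521 to 544 on the same other 3. GTF2H4, a subunit of the repair and transcription factor TFIIH, had 778 on MCF and 799 on QBL against 289 to 296 on the primary sequence, COX and MANN. An unplaced DBB summit with a pileup of 127, whose bracket of 3.37 kb held that start, matched those of MCF and QBL in order and spacing. It also matched an SSTO summit of 164, which was paired with a primary summit at 31197210. The match at GTF2H4 and that on SSTO cannot both hold, so matches between haplotypes can be wrong. TRIM26 had 380 to 388 on the primary sequence, APD, DBB and QBL, but 92 on SSTO and 50 on COX. DDAH2, an enzyme that degrades a nitric oxide synthase inhibitor, had 179 on the primary sequence and 53 to 75 on 4 haplotypes. The QBL summit at BAG6 (153) and the MCF summit at DDAH2 (53) were placed there without being matched pairs. MICA had 192 on the primary sequence, 220 to 247 on QBL, COX and SSTO, and 452 on MANN.

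Over all starts, 49 distinct intervals at called coding starts were present on at least 3 copies. A copy was counted where a placed summit lay within 1000 bp of the start, whether or not it was a matched pair. The highest copy was at most 1.5 times the lowest in 29 of them and more than 2 times in 13, with a median of 1.31. The 13 include starts where different sites were compared. At VARS1, counted at either gene end, the SSTO value (79) was that of the summit near VWA7, and the other copies had 243 to 274. At HSPA1L the COX and QBL values (102) came from another summit than the 175 to 210 of the other copies. The plot of pileups by copy shows 19 of these genes.

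**Figure D4:**
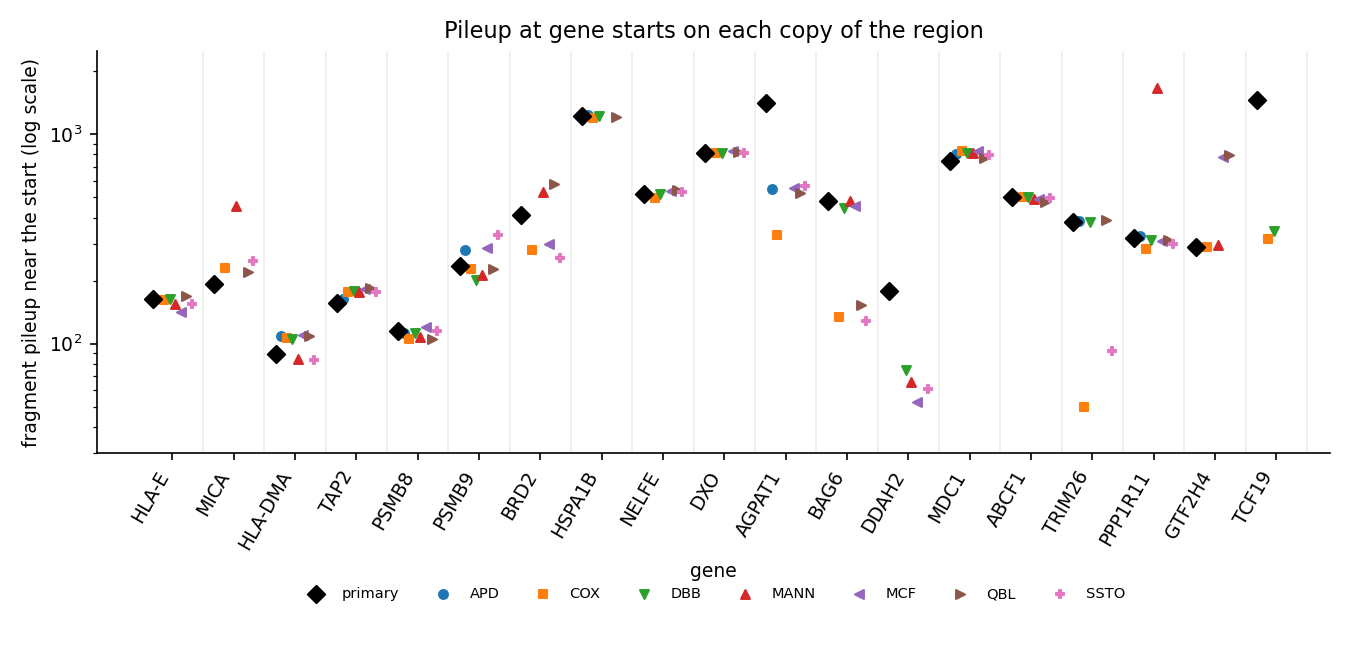
Fragment pileup (log scale) of the strongest summit near the start of 19 genes on the primary sequence (black diamonds) and on each of 7 alternate haplotypes (coloured symbols); a missing symbol means no placed summit. HLA-E, TAP2, PSMB8, HSPA1B, NELFE, DXO, MDC1 and ABCF1 have nearly equal copies, and 1 copy stands apart at AGPAT1, PPP1R11 and TCF19.

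Sites could also be counted by the number of copies that carried them. Placed intervals within 500 bp of each other were joined to 105 loci inside the region bounds. All 8 copies carried 11 loci, 7 copies 21 and 6 copies 18, while 14 loci were on 1 copy only, 6 of these on the primary. Of the 50 loci on 6 or more copies, all had a primary summit. This was largely given by the method, since 515 of the 640 haplotype intervals were placed by their match to a primary one. Unplaced summits are not in these counts, so some sites may be on more copies than counted. Called coding starts were on a median of 7 copies (range 2 to 8), and 47 of 61 on at least 6. Counting a summit on any copy added VARS2 (MCF 189, QBL 185, and an unplaced match of 130 on DBB) and PBX2 (APD 59) to the coding genes with a summit and gave 63 of 128 (49.2%). The DBB summit of 130 also matched an SSTO summit of 184, which was paired with a primary summit at 31203801, away from VARS2.

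The strongest enrichment of any alternate was at a site with no match on the primary sequence. It was 24.8 on MANN (pileup 558), and its match on MCF had 24.6 (539). Their brackets ran from 31181116 to 31186414 and from 31180707 to 31183228, between TCF19 and HLA-C, and no coding start lay within 1000 bp of either bracket. The strongest primary summit had an enrichment of 21.2. On the other haplotypes the strongest summits were at called starts, TRIM26 on APD (18.1), NELFE on COX (18.3) and SSTO (19.3), ABCF1 on DBB (18.8) and GTF2H4 on QBL (20.3). Another recurring site, bracketed from 29750348 to 29760863 on 5 of 6 haplotypes (COX 246, DBB 142, MANN 143, QBL 42, SSTO 276), took in a primary summit at 29753102 with a pileup of 149, near the pseudogene IFITM4P. The site on MCF (248) matched those of COX, QBL and SSTO, but its bracket was 78.7 kb wide and ended before that summit. Of 125 unmatched alternate intervals 51 could not be placed, and 34 of these had a match on another haplotype.

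Levels in the region stood below those of the rest of the chromosome at starts, per copy. At the 61 called coding starts of the primary region the pileup had a median of 311 (95% interval 228 to 413), and at the 592 called starts elsewhere on chromosome 6 it was 762 (673 to 806). Added over the copies that carried each start, the region's median was 1991 (1394 to 2355). The median enrichment was 11.1 in the region and 11.8 on the rest of the chromosome. Away from coding starts the primary summits of the region had a median pileup of 93.0 (62.0 to 113) and those of the rest of the chromosome, in intervals up to 10 kb, 112 (108 to 117). The local background exceeded the genome-wide value of 20.3 fragments at 55.2% of the region's summits near a coding start, against 90.7% elsewhere on the chromosome.

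A call needs a minimum of fragments, and the lowest pileup at any summit of the list was 35. With 7 copies, the median at called starts, an even division would take 245 fragments to leave 35 on each. Of the 592 called starts elsewhere on chromosome 6, 115 (19.4%) had a pileup under 245. How reads that fitted several copies were assigned is not given in the sources used here, and the part of the copies in the lower pileups and in the lower share of counted starts was not tested. The plot of pileups at called starts gives the 3 distributions.

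**Figure D5:**
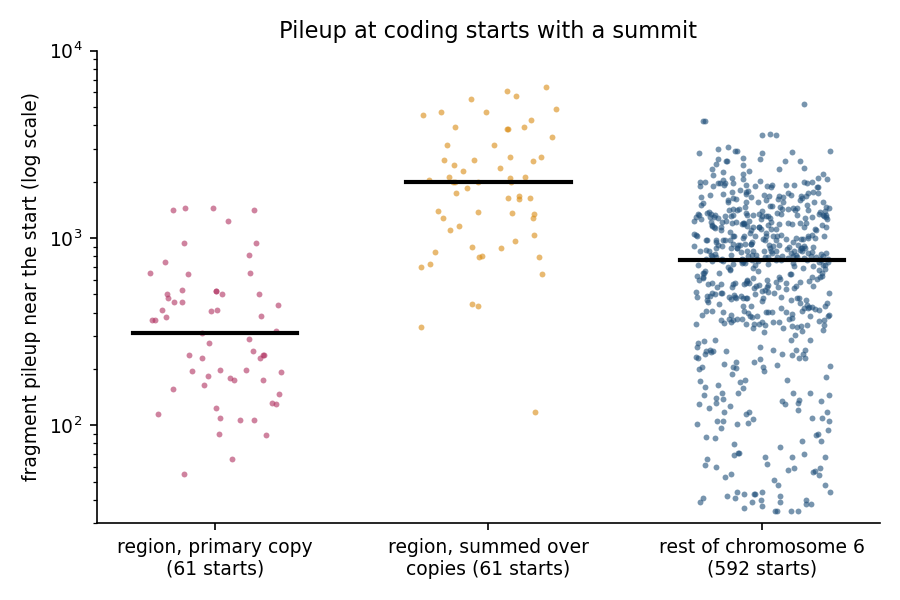
Fragment pileup (log scale) at coding starts with a summit, 1 point per gene: the region on the primary copy (61 starts), the same starts summed over all copies that carried them, and the rest of chromosome 6 (592 starts); black bars are medians, at 311, 1991 and 762. Points are spread sideways for display.

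Over all summits the intervals of the medians overlapped between the primary region and the alternates. The median enrichment was 5.77 (95% interval 4.70 to 8.25) on the primary sequence and 5.65 (5.12 to 6.10) on the alternates, and the median pileup 164 (113 to 197) and 149 (138 to 158). The alternates here include stretches beyond the region bounds and sequences not matched to the region. On the haplotypes alone, with those outer stretches, the medians were 5.77 (5.16 to 6.23) and 151 (142 to 161). Summits of the class III block had a median enrichment of 8.35 (5.07 to 11.8), those of class I 4.91 (4.60 to 7.74) and those of class II 4.30 (2.11 to 8.59), with overlapping intervals.

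The other 6 alternate sequences of chromosome 6 held 49 summits in 28 intervals, too few to match to the primary sequence. Most of them, 29 summits in 13 intervals, were on KI270798v1, whose strongest summit had an enrichment of 17.9. The strongest of all 6 was on KI270797v1, at an enrichment of 18.6 (pileup 941). KI270801v1 held 4 summits, up to 14.5, and KB021644v2 held 7, up to 3.61. GL383533v1 and KI270802v1 held 1 each, at 1.78 and 3.05. These 6 sequences are members by name, and no position on the primary chromosome is given for them here.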

How the data were processed

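The data were 1 peak list for the whole series, which covers 12 ATAC-seq libraries of HT1080 cells in 3 groups. Reads were processed with fastp 0.20.0, Bowtie2 2.4.3, SAMtools and deepTools 3.5.0 and peaks called with MACS2 2.2.7.1 on hg38, per the submitters' processing notes; parameters, treatment of duplicates and of reads that fit several places, and pooling steps are not given in the sources used here. Each deposited line gives a score, an enrichment (a ratio of the pileup to the local background), a p-value and a q-value, both as −log10, and the offset of the summit. These values are the authors'. They carry no library, so the planned count test between collagen concentrations had no input.

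The pileup (overlapping fragments at the summit) and background were recovered from the deposited ratio, taken as (pileup + 1)/(background + 1), and the −log10 p, taken as a Poisson upper tail. This model is not stated in the sources used here. It gave whole pileups, within 0.05, at 99.96% of lines and at all 908 members. The recovery and the matching of copies were tested on simulated data. The enrichment and −log10 q were used only to describe, rank and filter peaks within the list.

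Starts came from the RefSeq promoter table, and genes from the RefSeq gene table, both on GRCh38.p14; 583 rows of the gene table that hold positions on other sequences were left out. Of the region's 128 coding genes 115 had a promoter entry. Genes without one, there and elsewhere, were counted at either gene end. Copies were matched by their intervals' strongest summits, and a sequence needed 20 pairs, a minimum set after the data were seen, as was the joining of loci within 500 bp. An unmatched summit was placed where both flanking pairs had offsets within 200 bp of each other, or else within 20 kb of the nearest pair. Haplotype names are general knowledge of the assembly.

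The members and gene lists were chosen with earlier results of these data known. Genes named are those of fixed lists by role, the 5 summits of highest enrichment in each block, the 3 highest on the alternates by enrichment and by pileup, and the strongest summit of each alternate; starts singled out for differing between copies, and the unplaced sites, were chosen after their values were seen. Some listed genes are not reported here by name. No test was run, since the list has no replicates; medians carry order-statistic and shares Wilson 95% intervals, which cover counting over sites or genes only. Alternatives tried were the unit counted, a −log10 q of at least 10, the window (500 and 2500 bp), the gene end used, wider bounds, the spacing tolerance (50 and 500 bp) and, added after seeing the data, any copy, genes with a promoter entry only and a minimum of 5 pairs. Scripts used Python 3.11.15, numpy 2.4.6, pandas 2.3.3, scipy 1.17.1 and matplotlib 3.10.9.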

Additional observations from a re-analysis of the deposited data

How the results depend on the processing

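No paired analysis was possible because the list has no value per library, and leaving out replicates had no input for the same reason. Of 40 recomputed values 35 stayed within their main value's interval or within 1.5 times the main count. Bounds 1 Mb wider on each side took the primary summits from 100 to 200, as more sequence was counted. Over the alternates the median enrichment rose from 5.65 to 6.60 with the strongest summit of each interval only and to 6.52 at a −log10 q of at least 10, and the median pileup from 149 to 164 and 166. Both settings drop weaker summits by construction. The share of the region's coding genes with a summit ran from 46.1% (window 500 bp) to 64 of 128 genes (window 2500 bp, and either gene end), where the share of all coding genes ran from 58.6% to 70.9%. At a −log10 q of at least 10, HLA-DPA1 was lost, leaving 6 of 20 in the class II block. Matched pairs numbered 423 with a tolerance of 50 bp and 540 with 500 bp, and their median pileup ratio ran from 0.982 to 0.988 over the alternatives. Pooled depth is unknown, which limits what can be said of sites with no summit: a site not called was not detected in this list, and is not shown to be closed.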

Other observations

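The alternate haplotypes run past the region bounds on both sides, and their outer parts held sites that the primary sequence lacked. Near the alanine transfer RNA gene TRA-TGC6-1, below the lower bound, 6 haplotypes had a summit whose estimated position lay within 31 bp of the gene's nearer end, and no primary summit lay within 200 bp. The pileups were 55 on MCF, 57 on MANN, 59 on APD, 66 on QBL, 68 on DBB and 72 on COX. Near TRA-AGC2-2, another alanine transfer RNA gene, APD (63), DBB (56), MANN (50) and QBL (40) had such a summit. COX had further unmatched summits at TRA-CGC4-1 (186) and TRA-TGC9-1 (68).

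Above the upper bound the 2 highest pileups of any alternate were at PHF1, a Polycomb-associated protein, with 2366 on QBL and 2282 on SSTO against 1449 on the primary sequence.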
